A study of Rattus norvegicus with 31 samples.

Results

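The cold response of skeletal muscle was measured as a mean over control and Ucp1 knockout rats. All 16 libraries of rats kept in the cold were set against all 15 libraries of rats kept at room temperature. The change of each gene was the mean of its cold effect in controls and its cold effect in knockouts, so that neither genotype counted for more. These are all 31 libraries analysed here, 1 per animal, and membership followed from the sample titles alone. The muscle was the gastrocnemius of female Sprague Dawley rats, 7 months old and fed chow. Cold meant 4 °C for 14 days. The groups were control rats at room temperature (n = 8), Ucp1 knockout rats at room temperature (n = 7), control rats in the cold (n = 8) and Ucp1 knockout rats in the cold (n = 8). Ucp1 is the uncoupling protein of brown fat, and the knockouts lack it in every tissue as far as the labels say; how the allele was made is not given there. Ucp1 itself is not analysed here, so the genotype rests on the labels. What room temperature was in degrees is not given either.

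Skeletal muscle makes heat in the cold by shivering and by pumping ions without doing work. Calcium that leaks from the sarcoplasmic reticulum is pumped back by SERCA at the cost of ATP, and sarcolipin lets that pump burn ATP without moving calcium. Long periods of low-intensity contraction are known to favour slow, oxidative fibres, which use a contractile apparatus of their own and burn fatty acids and ketone bodies. Thyroid hormone and sympathetic nerves act on the same fibres in the cold.

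Libraries were made from 3' tags, so reads come mostly from near the 3' ends of transcripts. A gene's level, in CPM after scaling (counts scaled to a common library size), should therefore depend little on transcript length. Total counts ran from 6.56 to 11.9 M per library, and a difference by temperature was not detected (mean difference 0.503 M, exact stratified permutation test, two-sided, p = 0.269). The labelled tissue fitted its markers: 11 of 14 muscle markers were tested, among them Acta1 at 24646 to 49336 CPM (median 35540.0) at room temperature and 20681 to 51818 CPM (median 42822) in the cold. A pair of room temperature control rats, animals 1 and 2, stood apart on the second principal component. A set of 7 libraries, animal 1 among them, scored lowest on the first component, which held 35.3% of the variance: 1 room temperature control, 2 room temperature knockouts, 2 cold controls and 2 cold knockouts. Counts of list members without these libraries are given beside each list whose higher or lower count then moved by over 1.5 times. No batch is named in the labels. Each group holds consecutive animal numbers, and an effect of handling order and the effect of temperature cannot be told apart.

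Cold changed 567 of 10082 genes, 5.62% of those tested (edgeR quasi-likelihood test, Benjamini-Hochberg adjusted p under 0.05). Of these, 368 genes (3.65%) were higher in the cold and 199 (1.97%) were lower. Counts of list members given below are to be read beside these shares. The lists were chosen with earlier results of these data known, so their counts describe the members and are no test of a list. Changes were mostly modest. The median change of the higher genes was 1.53-fold and that of the lower genes 1.46-fold, and 64 of the higher and 19 of the lower genes had a fitted change above 2-fold. Against a null of a 1.5-fold change, 20 genes passed (0.198%), 19 of them higher (0.188%) and 1 lower (0.00992%). Genes that rose took 3.94% of all CPM at room temperature and 6.07% in the cold, and genes that fell took 3.89% and 2.73%.

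**Figure D1:**
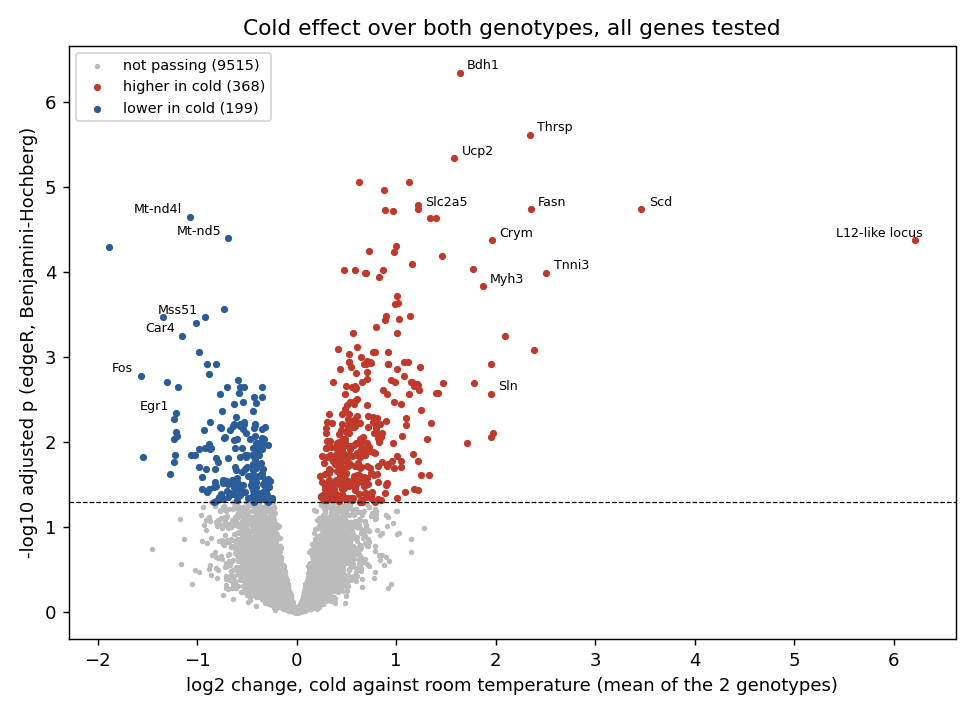
Each point is 1 of 10082 genes, with the log2 change in the cold as the mean of both genotypes on the x axis and minus log10 of the adjusted p on the y axis; the dashed line is an adjusted p of 0.05. The 368 red genes passed as higher and the 199 blue genes as lower, and the highest log2 changes are those of a locus like ribosomal protein L12 and of Scd.

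The response was largely of the same direction in both genotypes. Of the 567 genes, 0 changed in opposite directions in controls and knockouts, although effects that oppose each other also have little chance of passing on their mean. An unadjusted p under 0.05 was reached in both genotypes by 368 of them, in controls alone by 71 and in knockouts alone by 128. The 567 genes were chosen on the mean of the same within-genotype effects. These counts therefore follow in part from that choice and are no test of agreement between the genotypes. The mean over genotypes also reached genes that neither genotype showed by itself, since 400 of the 567 passed in neither genotype alone. Controls and knockouts share no library, so each can be read against the other. Of 86 genes that passed in controls (0.853% of those tested), 83 had the same sign in knockouts and 62 also had an unadjusted p under 0.05 there, where 14.3% of all genes had one. Of 139 genes that passed in knockouts (1.38%), 125 had the same sign in controls and 82 also had an unadjusted p under 0.05 there, against 14.2% of all genes.

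A stricter test took the larger of the 2 within-genotype p-values of a gene. By it, 21 genes changed in both genotypes (0.208% of those tested), 18 higher and 3 lower. The higher genes with a symbol were the slow muscle genes Myh7, Atp2a2 and Myoz2, the metabolic genes Bdh1, Ucp2, Slc2a5 and Gpx1, the receptor subunit Chrnd, the macrophage gene Cd163, and Abcg2, Agfg2, Enho, Htra3, Parm1, Prxl2a, Rpa1 and Smarcd2. The lower genes were the mitochondrially encoded Mt-nd4l and Mt-nd5 and a locus without a symbol. This count leaned on single animals: it was between 1 and 22 when 1 animal was left out at a time and 5 without the 7 libraries, and only Bdh1 kept its call in all 31 omissions. Smarcd2 kept it in 27 of them.

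No gene passed the test of a difference between the genotypes' cold effects (edgeR, smallest adjusted p = 0.125, against 739 genes with an unadjusted p under 0.05). DESeq2 called 1 gene, Bhlhe41, and limma voom called 4, Bhlhe41 with Tigd4, Atic and Usp7; none of the 4 is among the 567. Single estimates still differed widely. Of the 567 genes, 340 had the larger change in knockouts, 246 of the 368 higher genes and 94 of the 199 lower ones, and 37 had an unadjusted interaction p under 0.05. The 95% interval of the difference, knockout minus control, was 0.93 to 3.02 on the log2 scale for Thrsp, 0.83 to 4.51 for Scd and 0.31 to 2.80 for Fasn. For Dusp8 it was -1.98 to -0.53, for Rnf150 -1.36 to -0.37, for Prkaa2 -1.42 to -0.40 and for Map3k6 0.41 to 1.93. These intervals leave out 0 without adjustment for the number of genes tested. So do those of 7 other genes among the 567 described below: Ntf4 (-1.27 to -0.26), Slc7a10 (0.16 to 3.08), Hmox1 (0.09 to 1.46), Gpx3 (-0.963 to -0.00774), Esrrg, Mt-atp8 and Rbm3. The interval of Bhlhe41, which is not among the 567, leaves out 0 as well and is given at the end. For Myh7 the interval was -0.65 to 0.25 and for Bdh1 -0.36 to 0.999. Both hold 0, and differences within those intervals remain possible.

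**Figure D2:**
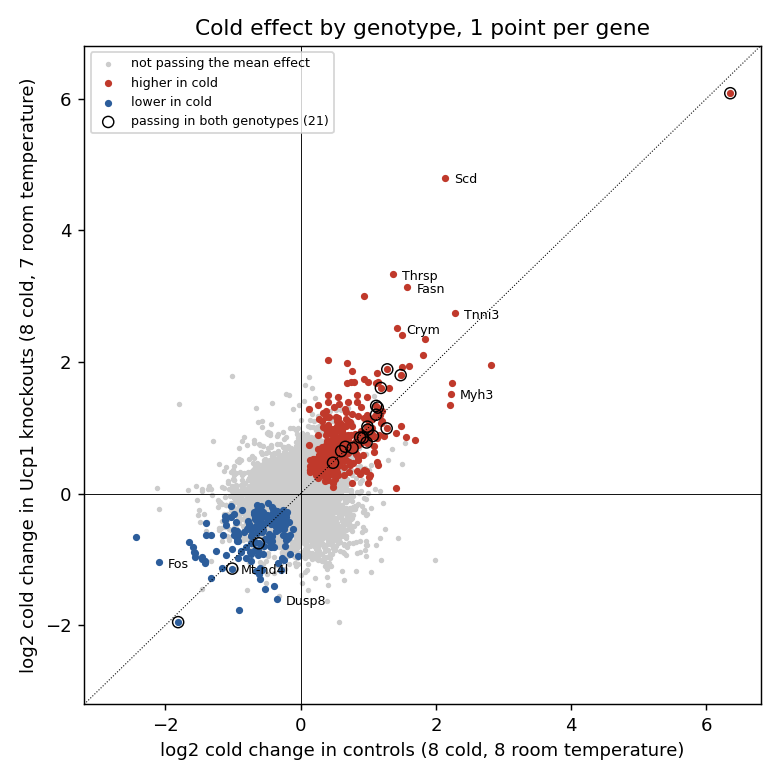
Each point is a gene, with its log2 cold change in controls on the x axis and in Ucp1 knockouts on the y axis, and the dotted line marks equal changes. The genes that passed lie in the upper right and the lower left, the 21 genes past the threshold in both genotypes are circled, and Scd, Thrsp and Fasn lie above the dotted line.

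For 3 genes every cold library lay above every room temperature library, in both genotypes (0.0298% of the genes tested), and for 0 genes every cold library lay below. They were Thrsp, Tpm3 and Bdh1, from lipid synthesis, the slow sarcomere and ketone body use. Thrsp encodes a small nuclear protein that accompanies fatty acid synthesis and responds to thyroid hormone. Its level was 4.07 to 22.7 CPM (median 13.4) at room temperature and 25.3 to 266 CPM (median 44.9) in the cold. Its log2 change was 2.35 ± 0.27 (SE), with an edgeR adjusted p of 2.39e-06. Tpm3 encodes the tropomyosin of slow fibres, and also forms found outside muscle that a 3' tag may not separate. Tpm3 ran from 231 to 937 CPM (median 764) at room temperature and from 937 to 1545 CPM (median 1279) in the cold, a log2 change of 0.90 ± 0.15 (adjusted p = 3.26e-04). The margin for Tpm3 was narrow, with 936.7 CPM in its highest room temperature library and 937.4 CPM in its lowest cold one. Bdh1 is the mitochondrial enzyme that oxidizes hydroxybutyrate in the first step of ketone body use. It was a gene of low level, at 0.632 to 2.92 CPM (median 1.80) at room temperature and 3.09 to 7.98 CPM (median 5.61) in the cold. Its log2 change of 1.64 ± 0.17 had the smallest adjusted p of all genes, 4.50e-07.

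The sequences just upstream of the annotated starts of these 3 genes are shown because their cold and room temperature libraries did not overlap. They come from RefSeq on build GRCr8, which is not the build of the counts, with 1 start per gene, and run 5′ to 3′ on the gene's strand and end at the base before the start. Capitals mark matches, on either strand, to the motifs GGGCGG (GC box), CCAAT (the box of that name), CAGCTG (muscle E-box) and AGGTCA (nuclear receptor half-site).
Thrsp, chr1:161138965-161139214, minus strand: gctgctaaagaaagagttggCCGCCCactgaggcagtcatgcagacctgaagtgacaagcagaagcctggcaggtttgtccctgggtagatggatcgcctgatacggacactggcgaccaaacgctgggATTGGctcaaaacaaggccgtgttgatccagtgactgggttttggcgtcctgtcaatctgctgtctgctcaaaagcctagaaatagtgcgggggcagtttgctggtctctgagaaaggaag
Tpm3, chr2:177814633-177814882, plus strand: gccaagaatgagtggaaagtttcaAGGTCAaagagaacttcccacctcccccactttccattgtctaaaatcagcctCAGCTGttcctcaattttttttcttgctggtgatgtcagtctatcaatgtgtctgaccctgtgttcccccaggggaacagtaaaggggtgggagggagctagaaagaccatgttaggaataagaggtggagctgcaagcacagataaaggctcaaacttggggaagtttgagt
Bdh1, chr11:82842637-82842886, minus strand: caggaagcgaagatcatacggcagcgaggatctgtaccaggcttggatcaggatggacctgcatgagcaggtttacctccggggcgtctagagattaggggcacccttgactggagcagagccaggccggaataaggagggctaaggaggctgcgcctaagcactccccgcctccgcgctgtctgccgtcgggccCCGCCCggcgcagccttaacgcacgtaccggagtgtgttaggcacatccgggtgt
Thrsp held a GC box and a CCAAT box, both as the reverse complement, Tpm3 a nuclear receptor half-site and a muscle E-box, and Bdh1 a GC box as the reverse complement. The marked matches do not overlap each other. All these motifs are common. GGGCGG was in 55.8% of 278 upstream sequences of genes that rose, in 64.4% of 135 of genes that fell and in 59.9% of 7576 of all genes tested. CCAAT was in 36.7%, 31.9% and 35.7% in the same order, CAGCTG in 14.4%, 18.5% and 12.3%, and AGGTCA in 11.2%, 12.6% and 10.2%. A match describes the letters and names no bound factor.

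Most tested genes of the slow contractile apparatus rose. Of 18 tested members of this list, 11 were higher and 0 lower, against 3.65% higher among all genes, with a median log2 change of 0.48 against -0.02 over all genes. Without animals 1 and 2, or without the 7 libraries just described, 10 were higher. Myh7, the slow myosin heavy chain, ran from 1441 to 3154 CPM (median 2351) at room temperature and from 2586 to 5653 CPM (median 4322) in the cold. In the cold, 14 of 16 libraries lay above every room temperature library. The log2 change was 0.88 ± 0.11 (edgeR adjusted p = 1.08e-05), with 0.97 in controls and 0.78 in knockouts. Atp2a2 encodes SERCA2, the calcium pump of slow fibres. It was at 343 to 776 CPM (median 555) at room temperature and 421 to 1601 CPM (median 1069.5) in the cold, where 15 of 16 libraries exceeded every room temperature library and cold knockout animal 31 did not. Its log2 change was 0.97 ± 0.13 (adjusted p = 1.88e-05). Myoz2, the calsarcin of slow fibres at the Z-disc, was at 162 to 506 CPM (median 338) at room temperature and 442 to 933 CPM (median 626) in the cold, with 13 of 16 cold libraries above all at room temperature (log2 change 0.89 ± 0.12, adjusted p = 1.86e-05).

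The slow troponins moved with them. Tnnt1, the slow troponin T, ran from 1690.1 to 7418 CPM (median 5214) at room temperature and from 5586 to 15772 CPM (median 9005) in the cold (log2 change 0.92 ± 0.17, adjusted p = 0.00120). Tnnc1, the troponin C of slow and cardiac muscle, changed by 0.80 ± 0.18 and Tnni1, the slow troponin I, by 0.53 ± 0.10. Both overlapped between temperatures in only part of their libraries, with 10 and 12 of 16 cold libraries above all at room temperature. Smaller log2 changes were seen for the slow myosin-binding protein Mybpc1 (0.37 ± 0.07), the alpha-actinin Actn2 (0.44 ± 0.11), the calsequestrin Casq2 (0.65 ± 0.16) and the light chain Myl3 (0.47 ± 0.14), and all of these passed. The 7 members that did not pass were Smpx, Myl2, Fhl1, Pln, Myh7b, Csrp3 and Ankrd2, with log2 changes from -0.11 to 0.48. Myoglobin, the oxygen store of oxidative fibres encoded by Mb, rose by 0.54 ± 0.13 (adjusted p = 0.0121). Of the 11 tested muscle markers only Mb was higher, and without animals 1 and 2 there were 2. The slow list as a whole took 0.884 to 2.16% of all counts at room temperature (median 1.82%) and 2.20 to 3.32% in the cold (median 2.52%), so the ranges did not overlap. In bulk muscle, more slow fibres and more slow transcript per fibre cannot be told apart.

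Of 14 tested genes of the fast contractile apparatus 2 passed, 14.3% against 5.62% of all genes, while 6 had an unadjusted p under 0.05 and limma voom called 5. With edgeR 1 was higher (Casq1, 0.55 ± 0.17, adjusted p = 0.0480) and 1 lower (Myoz1, -0.35 ± 0.10, adjusted p = 0.0227), with a median log2 change of 0.12. Casq1 is the fast calsequestrin and Myoz1 the fast calsarcin. Casq1 lost its call in 23 of 31 single omissions. The myosin heavy chain of the fast fibres that the files name Myh1 in one column and Myh4 in another ran from 18725 to 31664 CPM (median 27016) at room temperature and from 16162 to 41721 CPM (median 31176) in the cold (log2 change 0.22 ± 0.10, adjusted p = 0.196). Fast light chains were Mylpf at 0.27 ± 0.11 and Myl1 at 0.28 ± 0.11, and parvalbumin, Pvalb, was at 0.39 ± 0.13; none of these passed. As a share of all counts the fast list took a median of 14.2% at room temperature and 15.7% in the cold, with ranges that overlapped. Without animals 1 and 2, 3 fast genes were higher and 0 lower, and without the 7 libraries 0 passed.

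**Figure D3:**
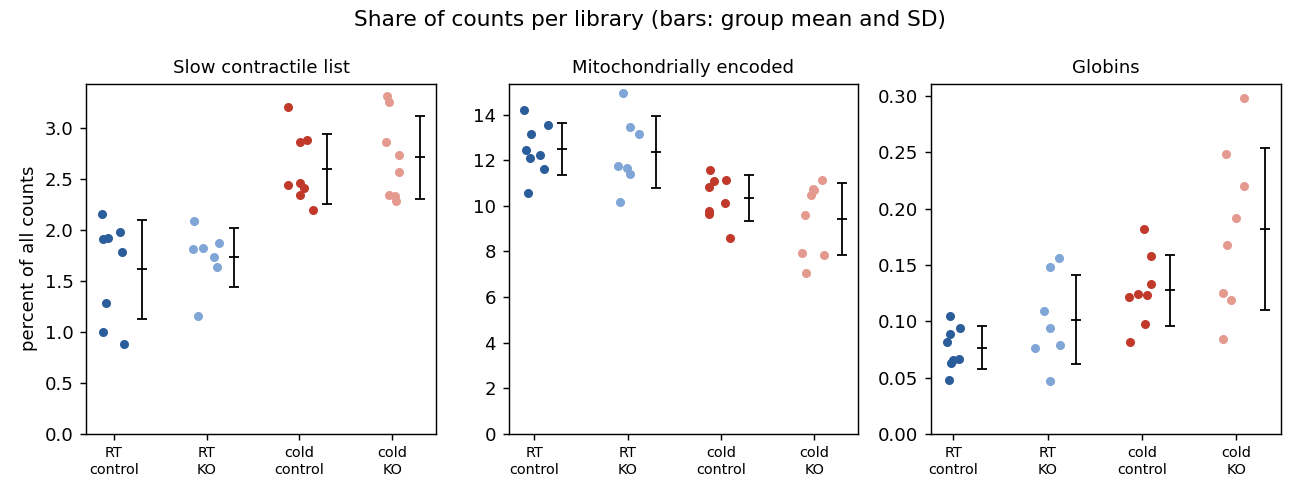
Share of all counts, in percent on the y axis, taken by the slow contractile list, by transcripts encoded in mitochondrial DNA and by globins, with 1 point per animal in the 4 groups on the x axis and bars for the mean and SD. The slow list is at 2.20 to 3.32% in all cold libraries and at 0.884 to 2.16% at room temperature, the mitochondrial share is lower in both cold groups, and the globin share is higher.

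Of 9 tested genes of the developing and cardiac sarcomere, 5 were higher and 0 lower (median log2 change 0.71). Myh3, the embryonic myosin heavy chain, was at 2.58 to 18.2 CPM (median 6.95) at room temperature and 5.17 to 89.4 CPM (median 22.1) in the cold, with 12 of 16 cold libraries above all at room temperature. Its log2 change was 1.87 ± 0.30 (edgeR adjusted p = 1.47e-04). Actc1, the cardiac actin that immature muscle also uses, was at 9.58 to 61.1 CPM (median 23.1) at room temperature and 21.9 to 121 CPM (median 51.5) in the cold (log2 change 1.13 ± 0.23). Tnni3, the cardiac troponin I, was at 0.0977 to 0.842 CPM (median 0.406) at room temperature and 0.471 to 9.23 CPM (median 1.88) in the cold (log2 change 2.51 ± 0.39). Tnnt2, the cardiac troponin T, changed by 1.78 ± 0.35 and Myh6 by 0.71 ± 0.20. These levels stayed far below those of Myh7, whose median in the cold was 4322 CPM.

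Among 17 tested genes known from denervated or regenerating muscle, 5 were higher and 1 lower, 35.3% against 5.62% of all genes. Both acetylcholine receptor subunits that passed rose. Chrnd was at 20.7 to 56.8 CPM (median 34.7) at room temperature and 42.9 to 231 CPM (median 87.4) in the cold, with 12 of 16 cold libraries above all others, a log2 change of 1.396 ± 0.19 (edgeR adjusted p = 2.27e-05). Chrna1 changed by 1.04 ± 0.28 (adjusted p = 0.0193). Higher as well were the cell cycle inhibitor Cdkn1a (1.18 ± 0.24), the transcription factor Runx1 (0.61 ± 0.15) and Myh3, which is also in the list above. Ntf4, a neurotrophin of muscle, fell (-0.53 ± 0.12, adjusted p = 0.00706), with -0.15 in controls and -0.92 in knockouts. Myog, the myogenin that rises after nerve loss, was at -0.34 ± 0.26 (adjusted p = 0.518) and the adhesion molecule Ncam1 at -0.20 ± 0.17 (adjusted p = 0.568). Of 12 tested genes of the spindle and the neuromuscular junction, Ache, the acetylcholinesterase, was lower (log2 change -0.87, from a median of 8.57 to 4.76 CPM), Ufsp1 was lower (-0.71 ± 0.20), and Myh6 was higher. In that list 0 were higher and 2 lower without animals 1 and 2, and 1 was higher and 1 lower without the 7 libraries. Of 8 tested satellite cell markers edgeR called 0 (1 at an unadjusted p under 0.05), and DESeq2 and limma voom called 0 too. Of 29 atrophy and autophagy genes edgeR and DESeq2 called 0 and limma voom 3, with 3 at an unadjusted p under 0.05 in edgeR; without animals 1 and 2 edgeR called 2, both higher.

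Of 33 tested genes of sarcoplasmic reticulum calcium handling, 6 were higher and 0 lower, 18.2% against 5.62% of all genes. The median log2 change was -0.01. Besides Atp2a2, Casq2 and Casq1 the higher genes were Sln, Rcan1 and Camk2b. Sln encodes sarcolipin. It was low and variable, at 1.26 to 24.8 CPM (median 8.30) at room temperature and 1.86 to 111 CPM (median 22.3) in the cold, where only 7 of 16 libraries lay above every room temperature library. Its log2 change was 1.96 ± 0.40 (edgeR adjusted p = 0.00267), with 1.80 in controls and 2.11 in knockouts. Rcan1, an inhibitor of calcineurin that calcineurin itself induces, was at 59.6 to 174 CPM (median 121) at room temperature and 105 to 558 CPM (median 221) in the cold (log2 change 1.15 ± 0.23, adjusted p = 0.00196). Camk2b, a calcium-dependent kinase, changed by 0.32 ± 0.10. Ryr1, the release channel, was at -0.11 ± 0.15 (adjusted p = 0.755). Without animals 1 and 2, 8 genes of this list were higher and 1 lower, and without the 7 libraries 3 were higher and 1 lower.

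Of 19 tested genes of uncoupling and futile cycles, 3 rose, namely Ucp2, Atp2a2 and Sln, and 0 fell, 15.8% against 5.62% of all genes. Ucp2, a relative of Ucp1 in the mitochondrial inner membrane, was at 3.69 to 9.69 CPM (median 5.78) at room temperature and 5.53 to 45.2 CPM (median 12.9) in the cold, and 13 of 16 cold libraries exceeded all at room temperature. Its log2 change of 1.58 ± 0.19 (edgeR adjusted p = 4.56e-06) was 1.28 in controls and 1.89 in knockouts, with a 95% interval of the difference of -0.15 to 1.36. Macrophages also express Ucp2, and macrophage markers moved with it as given below; their part in its change was not tested. Ucp3, the form typical of muscle, was at -0.39 ± 0.23 (adjusted p = 0.357). Its levels overlapped fully, at 52.2 to 279 CPM (median 181) at room temperature and 54.01 to 279 CPM (median 132) in the cold.

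**Figure D4:**
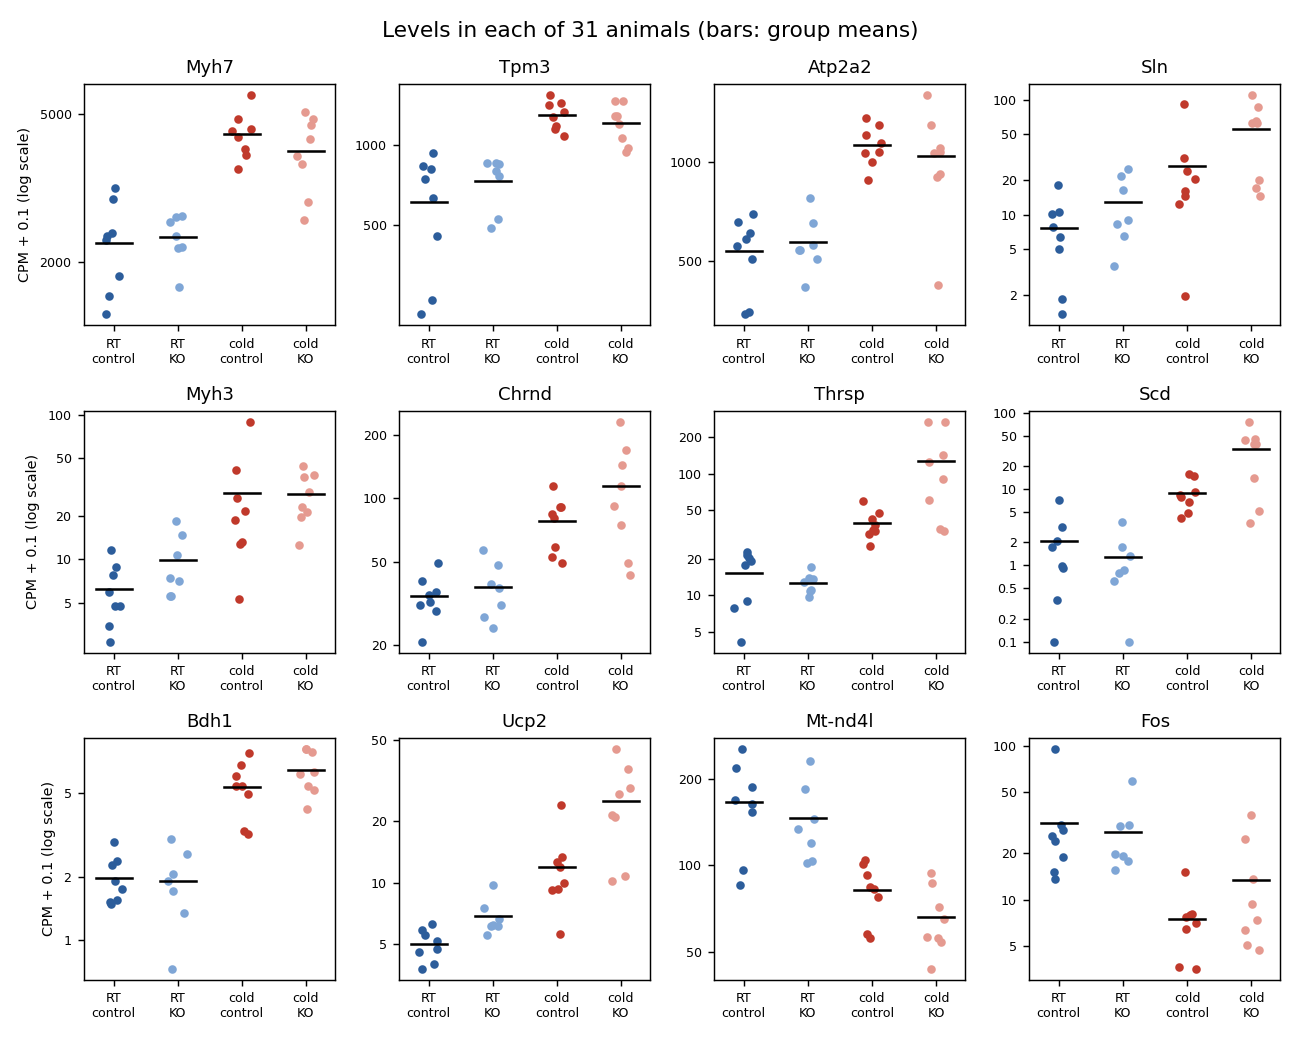
Level of 12 genes in each animal as CPM + 0.1 on a log scale, with the 4 groups on the x axis, 1 point per animal and bars at the group means. Tpm3, Thrsp and Bdh1 do not overlap between temperatures, Sln and Myh3 spread widely in the cold, and Mt-nd4l and Fos are lower in both cold groups.

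Transcripts encoded in mitochondrial DNA fell. Together they took 10.2 to 14.96% of all counts at room temperature (median 12.2%) and 7.05 to 11.6% in the cold (median 10.3%). The difference of -2.54 percentage points passed an exact stratified permutation test (two-sided, p = 7.14e-06, adjusted over 5 such shares to 1.78e-05). All 12 tested had a negative log2 change and 6 passed as lower, against 1.97% lower among all genes. Without animals 1 and 2, or without the 7 libraries, 7 passed. Subunits of complex I had the smallest p-values, while Mt-atp8 of ATP synthase, given below, had a larger change than Mt-nd5. Mt-nd5 ran from 951 to 1659 CPM (median 1355) at room temperature and from 495 to 1009 CPM (median 825) in the cold, with 13 of 16 cold libraries below every room temperature library (log2 change -0.69 ± 0.10, edgeR adjusted p = 3.97e-05). Mt-nd4l was at 85.7 to 253 CPM (median 153) at room temperature and 43.7 to 104 CPM (median 74.7) in the cold (log2 change -1.08 ± 0.15, adjusted p = 2.21e-05).

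The other complex I subunits that passed as lower were Mt-nd2 (-0.56 ± 0.13), Mt-nd3 (-0.57 ± 0.13) and Mt-nd1 (-0.42 ± 0.10). Mt-atp8, a subunit of ATP synthase, was at -0.90 ± 0.17, with -0.40 in controls and -1.402 in knockouts. The transcripts for cytochrome oxidase did not pass, with Mt-co1 at -0.13 ± 0.10, Mt-co2 at -0.35 ± 0.12 and Mt-co3 at -0.34 ± 0.13. Mt-atp6, the most abundant of the 12, was at -0.19 ± 0.10 with an adjusted p of 0.344.

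Nuclear genes of the same complexes mostly did not pass. Of 36 tested complex I subunits edgeR called 0, with 6 at an unadjusted p under 0.05 and a median log2 change of 0.00, DESeq2 called 1 and limma voom 3. With edgeR, 2 of 48 subunits of complexes II to V rose, Uqcrq (0.46 ± 0.13) and Cox6a1 (0.32 ± 0.09). Both of these were lost in some single omissions, Uqcrq in 12 and Cox6a1 in 5 of 31. Of 70 mitochondrial ribosome genes, Mrpl14 rose and Mrpl51 fell. These shares, 4.17% and 2.86%, were below the 5.62% of all genes. In a list of the citric acid cycle and genes linked to it, 3 of 27 rose and 0 fell, 11.1% against 5.62% of all genes. Without animals 1 and 2 there were 5 higher. The 3 were Idh2 (0.53 ± 0.11), the mitochondrial isocitrate dehydrogenase, Mdh1 (0.43 ± 0.11), the cytosolic malate dehydrogenase, and Pdk3 (0.60 ± 0.12), which inhibits pyruvate entry. Idh2 ran from 449 to 996 CPM (median 652) at room temperature and from 699.6 to 1596 CPM (median 888) in the cold.

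Among 38 regulators of mitochondrial number and shape, Esrrg rose and Mss51, Prkaa2 and Ncor1 fell. The list had 2 higher and 2 lower genes without animals 1 and 2, and 1 higher and 1 lower without the 7 libraries. Esrrg, a nuclear receptor of oxidative fibres, was at 8.03 to 24.3 CPM (median 14.6) at room temperature and 11.7 to 41.9 CPM (median 26.04) in the cold (log2 change 0.79 ± 0.14, edgeR adjusted p = 8.74e-04), with 1.14 in controls and 0.44 in knockouts. Mss51, a muscle gene whose loss raises oxidative metabolism, was at 188 to 343 CPM (median 268) at room temperature and 27.4 to 228 CPM (median 139) in the cold, where 13 of 16 libraries lay below every room temperature library. Its log2 change was -0.92 ± 0.15 (adjusted p = 3.37e-04). Prkaa2, the catalytic AMPK subunit of muscle, was at -0.50 ± 0.13, with -0.04 in controls and -0.95 in knockouts. Ppargc1a, the coactivator of mitochondrial genes that a single bout of cold or exercise induces, was at -0.31 ± 0.22 (adjusted p = 0.477) with levels of 0.630 to 4.26 CPM (median 3.29) at room temperature and 1.20 to 3.75 CPM (median 2.30) in the cold.

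The highest log2 change of a gene with a symbol was that of Scd, a gene of fatty acid synthesis. Of 19 tested lipogenic genes, 4 rose and 1 fell; without animals 1 and 2 it was 4 and 0, and without the 7 libraries 3 and 0. Scd, the desaturase that makes monounsaturated fatty acids, was at 0 to 7.10 CPM (median 0.889) at room temperature and 3.47 to 76.3 CPM (median 11.5) in the cold. In the cold 11 of 16 libraries exceeded every room temperature library, and the log2 change was 3.47 ± 0.46 (edgeR adjusted p = 1.82e-05). Fasn, the fatty acid synthase, was at 1.77 to 9.84 CPM (median 4.23) at room temperature and 5.29 to 82.7 CPM (median 14.99) in the cold (log2 change 2.36 ± 0.32, adjusted p = 1.82e-05). Tkt, the transketolase of the pentose phosphate pathway, rose (0.47 ± 0.12), and the malic enzyme Me1 fell (-0.30 ± 0.09, adjusted p = 0.0384). Acly, which makes cytosolic acetyl-CoA, did not pass and was at -0.07 in controls and 0.97 in knockouts. Of 17 cholesterol synthesis genes edgeR called 0 (2 at an unadjusted p under 0.05; 1 higher without animals 1 and 2), DESeq2 1 and limma voom 2.

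White adipocytes express Thrsp, Scd and Fasn at high levels, and their markers were higher in the cold in part. Of 10 tested white adipocyte markers of 15 listed, Retn (1.95 ± 0.37) and Slc7a10 (1.222 ± 0.36) rose and 0 fell, with a median log2 change of 0.72 against -0.02 over all genes. That median was 0.54 without animals 1 and 2 and 0.62 without the 7 libraries. Retn, the adipocyte hormone resistin, was at 0.313 to 24.8 CPM (median 9.39) at room temperature and 17.5 to 117 CPM (median 27.9) in the cold (edgeR adjusted p = 0.00120). Adipoq, adiponectin, was at 0.313 to 31.5 CPM (median 17.2) at room temperature and 17.7 to 94.2 CPM (median 27.9) in the cold (log2 change 1.01 ± 0.33, adjusted p = 0.0643). Retn and Adipoq were lowest in animals 1 and 2, each at 0.630 and 0.313 CPM. Plin1, which coats fat droplets, was at 0.92 ± 0.31 and Fabp4 at -0.12 ± 0.16. The summed level of the 10 markers was 445 to 2634 CPM at room temperature and 925 to 3753 CPM in the cold, and most of it came from Car3, which muscle also expresses. Slc7a10 lost its call in 15 of 31 single omissions, and without the 7 libraries 1 of the 10 markers was higher. The part of fat cells in the change of the lipogenic genes was not tested. Among brown adipocyte markers 3 of 10 were tested, and edgeR called 0, DESeq2 1 and limma voom 2, with 1 at an unadjusted p under 0.05 in edgeR.

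Of 24 genes of fatty acid uptake and droplets 2 rose and 1 fell, and of 30 genes of oxidation 2 rose and 1 fell. These shares, 12.5% and 10%, stood against 5.62% of all genes. Without the 7 libraries 0 genes of either list were lower, and without animals 1 and 2 0 of the oxidation list. Lpl, the lipase that frees fatty acids from lipoproteins, ran from 317 to 666 CPM (median 538) at room temperature and from 356 to 1075 CPM (median 687) in the cold (log2 change 0.48 ± 0.12). Angptl4, an inhibitor of that lipase, was at 2.07 to 66.9 CPM (median 19.5) at room temperature and 3.04 to 25.5 CPM (median 8.17) in the cold, with broad overlap (log2 change -1.27 ± 0.35, edgeR adjusted p = 0.0238). Without the 7 libraries its log2 change was -1.30 with an adjusted p of 0.0828. Dgat2, the last enzyme of triglyceride synthesis, rose by 0.46 ± 0.12. Cpt1b, the muscle carnitine palmitoyltransferase that admits fatty acids to mitochondria, was at 289.6 to 860.3 CPM (median 709) at room temperature and 695 to 1158 CPM (median 895) in the cold, with 10 of 16 cold libraries above all others (log2 change 0.46 ± 0.11). The other gene of this list that rose was Bdh1, the enzyme of ketone body use, and the acyl-CoA synthetase Acsl6 fell (-0.43 ± 0.13). Pdk4, which spares glucose during fasting, was at -0.38 ± 0.31 (adjusted p = 0.537).

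In sugar metabolism 5 of 24 genes of glucose and fructose entry and glycolysis rose and 0 fell, and without the 7 libraries 3 rose. The pair that handles fructose was among them. Slc2a5, the fructose transporter, was at 1.68 to 5.60 CPM (median 3.16) at room temperature and 4.92 to 12.6 CPM (median 6.86) in the cold, with 14 of 16 cold libraries above all others (log2 change 1.224 ± 0.16, edgeR adjusted p = 1.82e-05). Khk, ketohexokinase, was at 0.488 to 2.64 CPM (median 1.55) at room temperature and 2.11 to 5.43 CPM (median 3.24) in the cold (log2 change 1.14 ± 0.19, adjusted p = 3.26e-04). Ldhb, the heart-type lactate dehydrogenase of oxidative fibres, ran from 95.96 to 292 CPM (median 223) at room temperature and from 196 to 472 CPM (median 373) in the cold (log2 change 0.80 ± 0.14, adjusted p = 4.35e-04). Pgam1 changed by 0.38 ± 0.11 and Slc2a4, the insulin-regulated glucose transporter, by 0.24 ± 0.07. Of 19 glycogen genes the branching enzyme Gbe1 (0.52 ± 0.10) and the phosphorylase kinase subunit Phka1 (0.50 ± 0.10) rose, and 0 fell. This was 10.5% against 5.62% of all genes, and without animals 1 and 2 the list had 3 higher genes and 1 lower.

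Among 17 tested genes of the thyroid hormone system and its known targets 6 rose and 1 fell. All but 1 of these 7 are described above, namely Thrsp, Fasn, Myh7, Atp2a2, Slc2a4 and Me1. The remaining one was Crym, a cytosolic carrier of thyroid hormone. The list had 7 higher and 0 lower genes without animals 1 and 2, and 5 and 0 without the 7 libraries. Crym was at 4.66 to 12.96 CPM (median 9.33) at room temperature and 9.12 to 183 CPM (median 25.5) in the cold, with 15 of 16 cold libraries above all others (log2 change 1.97 ± 0.28, edgeR adjusted p = 4.21e-05). The thyroid receptors Thra (-0.18 ± 0.11) and Thrb (0.09 ± 0.07) did not pass. Thyroid hormone lowers Myh7 in muscle as textbooks have it and raises Thrsp and Fasn, so the list holds targets of both kinds.

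Stress genes rose in part. Of 28 genes of endoplasmic reticulum stress and the ATF4 pathway, 6 were higher and 0 lower: the folate enzyme Mthfd2 (1.11 ± 0.21), the chaperone cofactor Sdf2l1 (0.70 ± 0.13), the pseudokinase Trib3 (0.87 ± 0.18), the degradation factor Herpud1 (0.56 ± 0.13), and Psat1 (0.90 ± 0.26) and Phgdh (0.89 ± 0.26) of serine synthesis. Herpud1 was by far the most abundant of them, at 349 to 980.4 CPM (median 582) at room temperature and 629 to 1515 CPM (median 753) in the cold. Mthfd2 was at 0.388 to 2.03 CPM (median 1.20) at room temperature and 1.43 to 4.02 CPM (median 2.43) in the cold. The transcript of Atf4 itself was at -0.01 ± 0.14 (edgeR adjusted p = 0.981) and that of the chaperone Hspa5 at 0.23 ± 0.11 (adjusted p = 0.235).

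Of 29 antioxidant genes 6 rose and 1 fell. Gpx1, the cytosolic glutathione peroxidase, was at 208 to 419.6 CPM (median 337) at room temperature and 364 to 855 CPM (median 494) in the cold, with 14 of 16 cold libraries above all others (log2 change 0.73 ± 0.11, edgeR adjusted p = 5.66e-05). The secreted form Gpx3 changed by 0.59 ± 0.12, the quinone reductase Nqo1 by 0.71 ± 0.15, heme oxygenase Hmox1 by 0.77 ± 0.17, Gstm2 by 0.43 ± 0.10 and Mgst1 by 0.85 ± 0.20. Txnrd2, the mitochondrial thioredoxin reductase, fell (-0.44 ± 0.13). Among 9 cold-shock RNA-binding genes only Rbm3 passed. Rbm3, which is induced by low cell temperature, was at 31.98 to 97.6 CPM (median 47.4) at room temperature and 47.9 to 224 CPM (median 78.6) in the cold (log2 change 0.78 ± 0.18, adjusted p = 0.00786), with 0.34 in controls and 1.23 in knockouts and a 95% interval of the difference of 0.15 to 1.63. Cirbp, its closest relative in the list, was at 0.37 ± 0.15 (adjusted p = 0.134). Of 29 heat shock genes Dnajb6 (0.49 ± 0.12) and Hspb6 (0.35 ± 0.10) rose, 6.9% against 5.62% of all genes, and without the 7 libraries 1 was higher and 1 lower.

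Immediate early genes are switched on quickly by contraction, nerve input or handling. Of 20 tested, 3 fell and 1, Rcan1, rose, and 16 had a negative log2 change. Fos, a subunit of AP-1, was at 13.5 to 94.98 CPM (median 23.9) at room temperature and 3.45 to 35.4 CPM (median 7.42) in the cold, with 12 of 16 cold libraries below every room temperature library (log2 change -1.57 ± 0.30, edgeR adjusted p = 0.00166). Egr1, a zinc finger factor, ran from 23.1 to 106 CPM (median 55.6) at room temperature and from 9.57 to 62.02 CPM (median 18.98) in the cold (log2 change -1.21 ± 0.26, adjusted p = 0.00455). Jun, the partner of Fos, was lower as well (log2 change -0.58, from a median of 201 to 143 CPM). Of 21 genes of adrenergic and cAMP signalling the kinase subunit Prkaca (0.36 ± 0.08) and the repressor Crem (0.44 ± 0.12) rose and Fos fell. This was 14.3% against 5.62% of all genes, and without animals 1 and 2 this list had 3 higher and 3 lower genes. Of 18 clock genes edgeR and DESeq2 called 0 and limma voom 3, with 4 at an unadjusted p under 0.05 in edgeR; without animals 1 and 2 edgeR called 1, higher.

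Among 25 genes of secreted muscle factors 3 rose and 2 fell, and without the 7 libraries 5 rose and 1 fell. Enho, which encodes adropin, was at 3.48 to 7.75 CPM (median 4.91) at room temperature and 3.37 to 17.98 CPM (median 11.9) in the cold, with 15 of 16 cold libraries above all others (log2 change 1.225 ± 0.16, edgeR adjusted p = 1.60e-05). The exception was cold knockout animal 29. Agt, angiotensinogen, was at 1.88 to 12.5 CPM (median 6.71) at room temperature and 5.77 to 39.4 CPM (median 14.2) in the cold (log2 change 1.24 ± 0.24). Bdnf, a neurotrophin, was at 0 to 0.962 CPM (median 0.517) at room temperature and 0.220 to 3.47 CPM (median 1.09) in the cold (log2 change 1.17 ± 0.29). The factors that fell were Ntf4 and Angptl4. Mstn, the growth inhibitor myostatin, was at 0.05 ± 0.21. Of 27 genes of insulin and growth factor signalling edgeR and limma voom called 0 and DESeq2 1, with 5 at an unadjusted p under 0.05 in edgeR.

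Several genes outside the lists were among the smallest p-values. Smarcd2, a subunit of the SWI/SNF chromatin remodeller, was at 44.5 to 74.4 CPM (median 54.5) at room temperature and 63.7 to 114 CPM (median 83.96) in the cold. Its log2 change was 0.62 ± 0.08 (edgeR adjusted p = 8.68e-06), with 0.60 in controls and 0.65 in knockouts, and within each genotype no cold library overlapped a room temperature one. Parm1 ran from 4.02 to 12.3 CPM (median 8.02) at room temperature and from 10.6 to 31.9 CPM (median 16.5) in the cold (log2 change 1.13 ± 0.14, adjusted p = 8.68e-06). Rpa1, which coats single-stranded DNA, was at 35.3 to 59.7 CPM (median 45.5) at room temperature and 53.8 to 74.8 CPM (median 63.3) in the cold (log2 change 0.47 ± 0.07). Higher by more were Ctxn3 (1.77 ± 0.27) and Cst7, a cystatin of immune cells (1.46 ± 0.22). On the lower side Rnf150 was at -0.73 ± 0.12 and the phosphatase Dusp8, which acts on stress kinases, at -0.98 ± 0.18, with -1.16 and -1.61 in knockouts and -0.30 and -0.35 in controls. Asb2, an ubiquitin ligase subunit of muscle, was at -0.88 ± 0.21 and Mllt3 at -0.93 ± 0.21.

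Of 45 extracellular matrix genes 5 rose and 1 fell, 13.3% against 5.62% of all genes. Without the 7 libraries 6 rose and 0 fell. Bgn, the proteoglycan biglycan, was at 24.6 to 92.5 CPM (median 55.5) at room temperature and 58.6 to 239.7 CPM (median 96.9) in the cold (log2 change 1.02 ± 0.17, edgeR adjusted p = 3.50e-04). The cross-linking oxidase Lox rose by 0.92 ± 0.17 and its relative Loxl1 by 0.58 ± 0.16, elastin, Eln, by 0.51 ± 0.13 and Fbln1 by 1.05 ± 0.22. Col5a3 fell (-0.69 ± 0.18). Of the fibrillar collagens, Col1a1 was at 0.16 ± 0.25 (adjusted p = 0.777) and Col3a1 at -0.21 ± 0.23 (adjusted p = 0.672). Of 12 fibroblast markers 1 was higher (0 without the 7 libraries), 8.33% against 5.62% of all genes. Their summed level was 523 to 2350 CPM at room temperature and 875 to 2243 CPM in the cold. Of 10 tenocyte markers edgeR, DESeq2 and limma voom called 0, with 4 at an unadjusted p under 0.05 in edgeR.

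Of 18 macrophage markers 3 rose and 0 fell, and 17 had a positive log2 change. Their summed level was 107 to 559.6 CPM at room temperature (median 355) and 363 to 642 CPM in the cold (median 487). Cd163, a scavenger receptor of resident macrophages, was at 6.05 to 24.97 CPM (median 15.8) at room temperature and 13.6 to 52.4 CPM (median 31.6) in the cold (log2 change 1.002 ± 0.15, edgeR adjusted p = 4.95e-05), C1qb changed by 0.65 ± 0.18 and Lyve1 by 0.66 ± 0.19. Without the 7 libraries 5 macrophage markers were higher. S100a8 (2.38 ± 0.43) and S100a9 (1.96 ± 0.46), genes of neutrophils and monocytes, rose at low levels, with S100a8 at 0.378 to 7.63 CPM (median 1.218) at room temperature and 1.53 to 46.5 CPM (median 5.39) in the cold. Only 3 of 10 neutrophil markers were tested.

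Globin transcripts were higher in the cold. They took 0.0470 to 0.157% of all counts at room temperature (median 0.0818%) and 0.0820 to 0.299% in the cold (median 0.129%), a difference of 0.0659 percentage points (exact stratified permutation test, two-sided, p = 0.000285, adjusted to 0.000475). Of 6 tested erythroid markers 4 rose, Hbb-b1 by 1.08 ± 0.21, Alas2 by 0.97 ± 0.23 and both entries named Hba-a2, whose reads the counting may have split. The 2 that did not pass had negative log2 changes, the lowest at -0.31. Among 16 tested endothelial markers 3 fell and 0 rose. These were Car4 (-1.15 ± 0.20), a capillary carbonic anhydrase, Aplnr (-0.89 ± 0.17), the apelin receptor, and Cdh5 (-0.59 ± 0.12), the vascular cadherin. Cdh5 was at 14.9 to 28.5 CPM (median 21.2) at room temperature and 8.37 to 17.97 CPM (median 14.5) in the cold. Of 19 listed endothelial markers 16 were tested, and the summed level of the 16 was 395 to 576 CPM at room temperature and 329 to 536 CPM in the cold. The part of these cells in the other results was not tested, and fewer cells and less RNA per cell cannot be told apart.

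Of 20 tested genes of other ion channels and transporters, the zinc transporter Slc30a2 rose (2.10 ± 0.37) and the muscle sodium channel Scn4a fell (-0.57 ± 0.17). This was 10% against 5.62% of all genes, and without animals 1 and 2 there were 2 higher and 1 lower. Of 17 tested genes of the Z-disc and M-band, Myom3 (0.73 ± 0.22) and Pdlim7 (0.40 ± 0.12) rose, a share of 11.8%, and without the 7 libraries 0 passed. Of 10 tested Schwann cell markers Uchl1 rose (0.83 ± 0.20), a share of 10%. Of 12 smooth muscle and pericyte markers edgeR and limma voom called 0 and DESeq2 1, with 2 at an unadjusted p under 0.05 in edgeR, and only 1 of 16 lymphocyte markers was tested, which no tool called. Of 72 cytosolic ribosome genes Rplp0 rose (0.30 ± 0.09) and Rpl34 fell (-0.24 ± 0.07), 2.78% against 5.62% of all genes; without the 7 libraries 0 passed, and without animals 1 and 2 there were 1 higher and 2 lower. Of 37 proteasome genes edgeR and DESeq2 called 0 and limma voom 1, with 3 at an unadjusted p under 0.05 in edgeR. Among lists with at least 5 tested members the share that passed was highest for erythroid markers, at 66.7%. Slow contractile genes, the embryonic and cardiac sarcomere and mitochondrially encoded transcripts followed, at 61.1%, 55.6% and 50%, against 5.62% of all genes. Because the lists were chosen with earlier results of these data known, and some share members, this order is a description only.

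**Figure D5:**
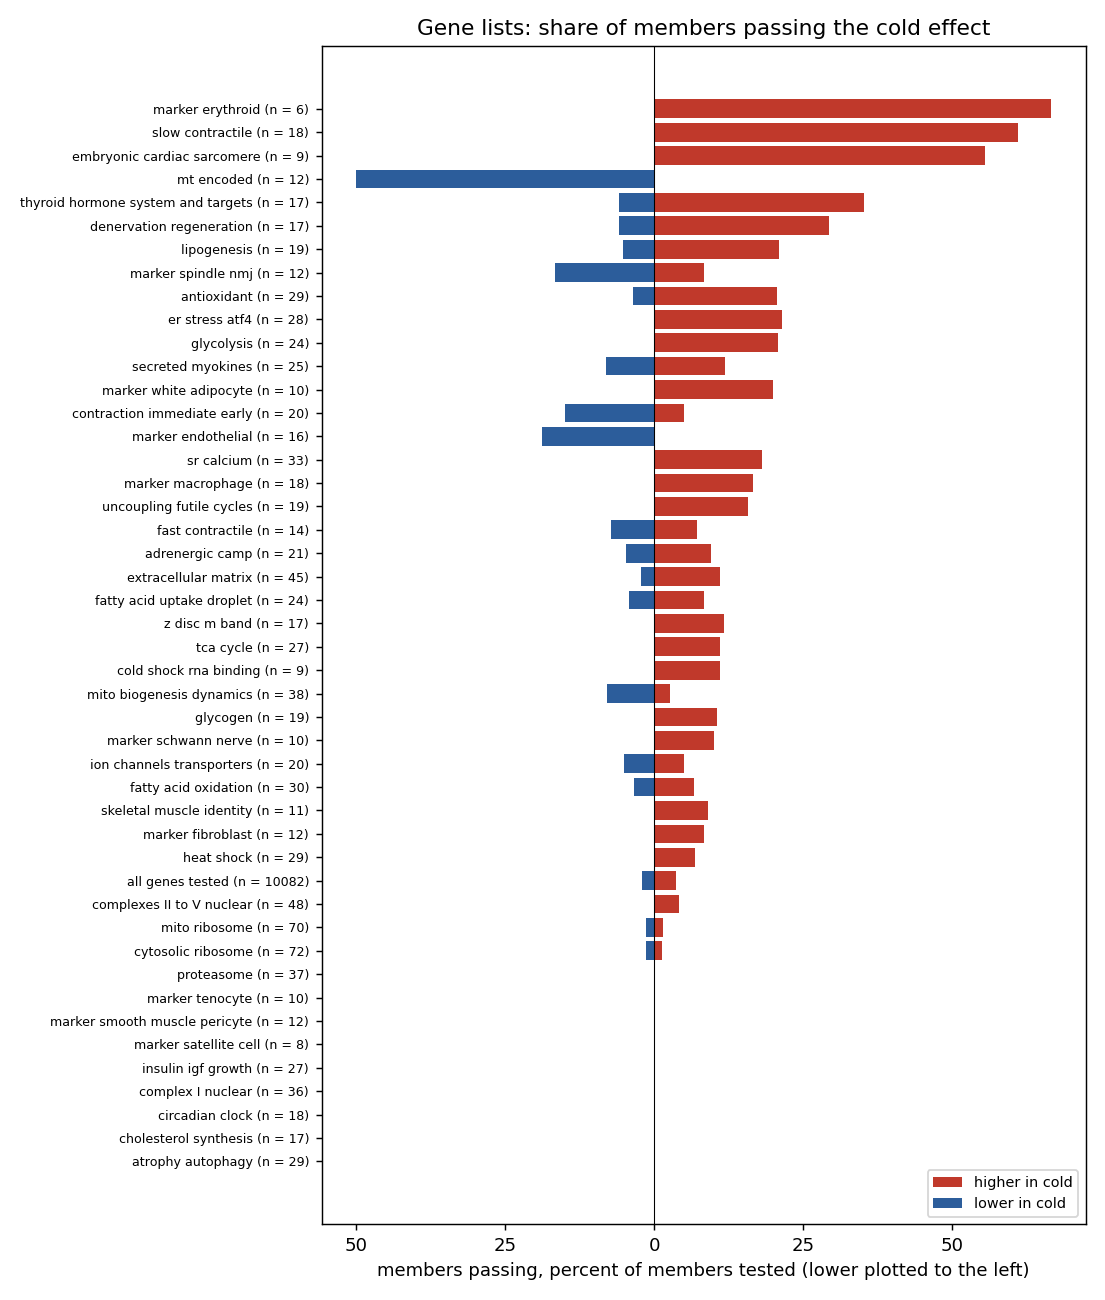
Share of each list's tested members that passed, in percent on the x axis, with members higher in the cold drawn to the right and members lower in the cold to the left; lists with at least 5 tested members are shown with their number. The slow contractile list reaches 61.1% to the right and the mitochondrially encoded list reaches 50% to the left, against 3.65% and 1.97% for all genes tested. The lists were chosen with earlier results of these data known.

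Calls near the threshold rested on few animals. Of the 567 genes, 387 kept their call when any 1 of the 31 animals was left out and 145 lost it in more than 3 of the omissions. Among the genes given above, the call was lost in 26 of 31 omissions for Rplp0, in 24 for Acsl6, in 21 for Ncor1 and Pdlim7, in 19 for Hspb6, in 18 for Myl3, Slc2a4, Rpl34, Myom3 and Scn4a and in 17 for Camk2b. It was lost in 15 for Mrpl51, in 14 for Me1, in 13 for Phgdh, in 10 for Pgam1 and Txnrd2, in 7 for Ufsp1 in 6 for Psat1 and in 8 for 1 of the Hba-a2 entries. Lyve1 did not pass without cold knockout animal 29 or 31, Myh6 or Crem without room temperature knockout animal 14, and Angptl4 without room temperature control animal 3. Without animals 1 and 2 together the calls of Acsl6, Hspb6, Lyve1, Me1, Myh6, Myl3, Myoz1, Ncor1, Pgam1, Psat1, Scn4a, Slc7a10 and Txnrd2 were lost, and without the 7 libraries those of Acsl6, Angptl4, Camk2b, Casq1, Casq2, Chrna1, Col5a3, Hspb6, Loxl1, Me1, Myl3, Myom3, Myoz1, Ncor1, Pdlim7, Pgam1, Phgdh, Prkaa2, Psat1, Rpl34, Rplp0, Scn4a, Slc2a4, Slc7a10, Tkt and Ufsp1. Of the 117 genes named by rule that passed, 107 kept their call in the first case and 97 in the second. With temperature as the only term, the calls of Acsl6, Casq1, Ncor1, Ntf4, Pdlim7 and Prkaa2 were lost. Without TMM scaling those of Hspb6, Lyve1, Myh6, Rpl34 and Rplp0 were lost, and without the filter those of Acsl6, Ncor1, Pdlim7, Rpl34 and Rplp0.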

How the data were processed

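RNA of 31 gastrocnemius muscles was made into 3' tag libraries with a Quant-Seq kit, per the labels. The authors deposited raw counts of reads per gene and a signal table of normalized counts. The submitters' processing notes name build Rnor_6.0 and DESeq2 1.22.2. The deposited signal equalled counts divided by 1 factor per library. No aligner or counter is given in the sources used here. The table held 11289 genes, with no gene under 93 counts in total.

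Tests on the counts used edgeR 4.0.16 (R 4.3.3): TMM scaling, filterByExpr (minimum count 10, minimum total 15; 10082 genes kept), quasi-likelihood fit with 1 mean per group and 27 residual degrees of freedom, and Benjamini-Hochberg adjustment over all genes within a contrast (threshold 0.05). Changes are log2 ± SE of the fit; intervals are 95%. Symbols came from the deposited table (10195) or, by Entrez ID, from RefSeq GRCr8 (191); 903 genes had none and 30 shared one. Genes were named by rule: among passing genes that have a symbol and average 5 CPM or more, the 12 highest and 12 lowest changes, the 8 smallest p-values in each direction, up to 4 per list, and 22 set genes. Other list members that passed are given as well. The members and lists were chosen with earlier results of these data known. On simulated counts for this contrast (10082 genes) 43.3%, 80.6% and 100% of genes changed 1.5-, 2- and 3-fold were called. These counts were drawn gene by gene, without genotype differences or the principal components of the data, so the shares hold for that setting. No 2 libraries of a group agreed within sampling noise (105 pairs, chi-square over its degrees of freedom at least 5.23). P-values measure the spread between animals. Reads carry no molecular identifiers as far as the sources say. Alternatives were other scalings and filters, covariates, DESeq2 1.42.0, limma 3.58.1 voom, sva 3.50.0 and omission of libraries.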

Additional observations from a re-analysis of the deposited data

Results flagged for a closer look

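The levels of 53 genes, the total counts and 4 shares of counts, 232 groups of 7 or 8 animals in all, were searched for a library far from the rest of its group, by the gap to the nearest other library over the whole range. Chance flags about 1 group in 20, and 13 groups were flagged. Fos was at 94.98 CPM in room temperature control animal 8, against 13.5 to 30.4 CPM in the others of its group. Cold knockout animal 29 stood apart in 3 genes, with Mss51 at 27.35 CPM (others 79.9 to 184), Enho at 3.365 CPM (others 8.42 to 17.98) and Cirbp at 182.1 CPM (others 59.7 to 99.8). Atp2a2 was at 421.3 CPM in cold knockout animal 31, against 897 to 1601 CPM. Asb2 was at 9.887 CPM in room temperature knockout animal 12 (others 24.9 to 34.0) and at 4.12 CPM in cold control animal 17 (others 12.7 to 26.8). Cold control animal 16 had Prkaa2 at 20.11 CPM (others 28.2 to 35.1) and Pdk4 at 0.2234 CPM (others 1.21 to 3.24), and room temperature knockout animal 15 had Prkaa2 at 18.77 CPM (others 32.6 to 45.0). Agfg2 was at 10.01 CPM in room temperature control animal 2 (others 14.4 to 16.6), and Cd163 at 24.97 CPM in room temperature knockout animal 9 (others 14.9 to 18.3). The locus ENSRNOG00000053848 was at 29.81 CPM in cold control animal 23 (others 7.00 to 12.7).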

How the results depend on the processing

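No paired analysis was possible because every animal carries its own number. For the cold main effect the count of genes, 567 (368 higher, 199 lower), was 556 to 581 with other scalings or no filter, 560 and 561 with an additive model or temperature alone, 759 with DESeq2, 729 without room temperature control animals 1 and 2, 527 without the 7 low libraries of the first component (chosen after seeing the data) and 452 to 686 with 1 animal left out. It was 1260 with the first component (666 higher, 594 lower) or a surrogate variable (668 and 592) as a covariate and 1424 (835 and 589) with limma voom; the cause was not tested. The 21 genes passing in both genotypes were 13 with DESeq2 size factors, 13 without TMM, 14 without the filter, 41 and 44 with the covariates, 37 with DESeq2, 39 with limma voom, 15 without animals 1 and 2, 5 without the 7 libraries and 1 to 22 with 1 animal left out. A count of 1 was reached without room temperature control animal 5 or 7 or room temperature knockout animal 11 or 14. The number of genes that differed between genotypes was 0, but 1 with DESeq2, 4 with limma voom and 0 to 1 with 1 animal left out. Genes changed beyond 1.5-fold numbered 20, and 16 to 24 under the other settings. The cold difference of the fast contractile share was 1.20 percentage points (exact stratified permutation test, adjusted p = 0.135), 1.64 without animals 1 and 2 (adjusted p = 0.0348) and 0.929 to 1.49 with 1 animal left out; without cold knockout animal 29 its adjusted p was 0.0441. Of 117 named genes that passed, 87 did so in every setting and omission, and 0 reversed. Of named genes that did not pass, Ryr1 turned to 0.0797 without animals 1 and 2 and 0.0242 with limma voom, and Bhlhe41 to -0.0321 with limma voom. Depth is expected to limit genes of a few CPM most, which was not tested. Of simulated 1.5-fold changes, placed in genes of all levels and without the principal components of the data, 43.3% were called.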

Other observations

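A locus without a symbol, ENSRNOG00000029115, which the deposited annotation describes as like the 60S ribosomal protein L12, had the highest log2 change of all genes, 6.22 ± 0.89 (edgeR adjusted p = 4.21e-05). With limma voom it did not pass (adjusted p = 0.0669). It was either on or off. In 5 of 8 cold controls and 4 of 8 cold knockouts it was at 48.6 CPM or more, and in the other 7 cold libraries and all 15 room temperature libraries it was at or under 2.32 CPM. Over the 10082 genes tested, 3 had such a split, with every library at or under 2.5 CPM or at or over 20 CPM. The others were Mrpl43, on in 7 of 15 room temperature and 8 of 16 cold libraries at 64.0 to 276 CPM, and ENSRNOG00000012067, on in 5 room temperature and 5 cold libraries at 24.3 to 41.7 CPM. The pattern of the first locus by temperature is therefore given as a value only.

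Of the 3 genes that fell in both genotypes, ENSRNOG00000053848 had no symbol. It was at 10.6 to 68.8 CPM (median 36.3) at room temperature and 0.868 to 29.8 CPM (median 8.80) in the cold, a log2 change of -1.88 ± 0.27 (edgeR adjusted p = 5.02e-05), with -1.81 in controls and -1.95 in knockouts. Among the 567 genes changed by cold, 16 higher and 24 lower ones had no symbol.

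Bhlhe41, a repressor of the clock that also acts in slow and fast fibres, had a mean cold effect near 0 (0.09 ± 0.17, edgeR adjusted p = 0.816). In controls its log2 change was 0.97 and in knockouts -0.78, with a 95% interval of the difference of -2.44 to -1.06. The difference did not pass with edgeR (smallest adjusted p over all genes 0.125). It passed with DESeq2 (adjusted p = 0.00386) and with limma voom (adjusted p = 0.0433), and with edgeR in 3 of 31 single omissions, without room temperature control animal 6, cold control animal 16 or cold knockout animal 28 (adjusted p = 0.0404, 0.0239 and 0.0430).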
